A study of Mus musculus with 12 samples.

Results

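The genes described here are 10 coagulation genes of the liver: F2, F5, F7, F9, F10, F11, F12, Proc, Fga and Fgb, which encode clotting factors, protein C and 2 of the fibrinogen chains. They were found on Affymetrix mouse arrays as every probe set annotated to 1 of these symbols and to no other. That gave 13 probe sets for 10 genes on each of 2 array designs, of 22626 probe sets and 12393 genes on the 430A design and of 45037 probe sets and 18193 genes on the 430 2.0 design. F10 had 3 probe sets, F5 had 2 and each of the other members had 1. All 13 passed the filter on low signals on both designs, so none was lost to it.

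The arrays measured RNA from whole liver of mice 10 weeks of age that differed in Fah, in p21 and in the drug NTBC. Fah encodes fumarylacetoacetate hydrolase, which completes the breakdown of tyrosine, p21 is a cyclin-dependent kinase inhibitor encoded by Cdkn1a, and NTBC blocks tyrosine breakdown upstream of Fah. On 430A, the Fah p21 off group held 2 livers of Fah, p21 double knockout mice off NTBC for 14 days, and the Fah off group held 3 livers of Fah single knockout mice off NTBC for the same time. The group titled normal had 4 livers, from a wildtype mouse on water (normal 1), a wildtype mouse on NTBC (normal 2), a Fah knockout mouse on NTBC (normal 3) and a Fah, p21 knockout mouse on NTBC (normal 4). The 430 2.0 design held 2 further Fah p21 off livers (3 and 4) and a normal 4 array, a Fah, p21 knockout on NTBC, taken to be the same mouse as on 430A because the titles give the same replicate number. The normal group therefore mixes genotypes and treatments with 1 mouse for each. Strain and sex of the mice are not stated in the labels. The titles call the arrays biological replicates, and their small number limits the precision.

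Blood clotting runs through a cascade of proteases that circulate as inactive precursors, most of them made and secreted by hepatocytes. In the extrinsic branch, tissue factor binds factor VII. In the intrinsic branch, factors XII, XI and IX act in turn. Both lead to factor X, which with its cofactor factor V turns prothrombin (F2) into thrombin, and thrombin cleaves fibrinogen to fibrin. Protein C (Proc), once activated, inactivates factor V and so restrains the cascade. F2, F7, F9, F10 and Proc encode proteins that need vitamin K-dependent gamma-carboxylation.

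Promoter windows of 250 bases before to 50 bases after the annotated gene start were taken from the RefSeq table of GRCm38.p6 for 9 of the 10 genes, all except Proc. Both strands were searched for 4 motifs tied to liver genes: an HNF1 motif (GTTAAT), an HNF4 site (CAAAGTCCA), a C/EBP site (TTGCNNAA) and an IL-6 response element (CTGGGAA). The HNF1 motif was present in 3 of the 9 windows (F2, Fga and Fgb), against 7.1% of 32851 promoters. The C/EBP site was present in 4 windows (F9, F11, Fga and Fgb), against 10.8% of promoters, and the IL-6 response element in 2 (F9 and Fgb), against 11.1%. The exact letters of the HNF4 site were present in 0 of the 9, against 0.475% of promoters. So rare a string can hardly be met in 9 windows. Other forms of the site were not searched, so their absence is not shown. The windows of 4 genes are shown because they belong to genes with the smallest and the largest changes in Fah off against normal livers, Fga and Fgb at one end and F7 at the other, with F9 between. Capitals mark the motif matches, none of which overlap, and a match is a description of letters and not of binding. The windows are Fga at chr3:83025903-83026202 (plus strand), Fgb at chr3:83049814-83050113 (minus strand), F9 at chrX:59999214-59999513 (plus strand) and F7 at chr8:13025784-13026083 (plus strand), each read 5′ to 3′ along the gene.
Fga: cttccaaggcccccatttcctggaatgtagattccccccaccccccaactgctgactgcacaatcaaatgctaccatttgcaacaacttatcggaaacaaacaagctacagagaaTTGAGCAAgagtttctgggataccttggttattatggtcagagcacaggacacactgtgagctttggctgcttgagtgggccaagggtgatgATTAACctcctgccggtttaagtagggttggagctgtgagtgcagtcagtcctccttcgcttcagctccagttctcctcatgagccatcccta
Fgb: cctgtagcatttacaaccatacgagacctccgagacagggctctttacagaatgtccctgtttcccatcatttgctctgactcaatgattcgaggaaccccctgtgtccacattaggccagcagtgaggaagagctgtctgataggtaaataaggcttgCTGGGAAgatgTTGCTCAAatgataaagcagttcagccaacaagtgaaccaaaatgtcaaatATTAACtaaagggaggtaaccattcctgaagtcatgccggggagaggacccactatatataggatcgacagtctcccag
F9: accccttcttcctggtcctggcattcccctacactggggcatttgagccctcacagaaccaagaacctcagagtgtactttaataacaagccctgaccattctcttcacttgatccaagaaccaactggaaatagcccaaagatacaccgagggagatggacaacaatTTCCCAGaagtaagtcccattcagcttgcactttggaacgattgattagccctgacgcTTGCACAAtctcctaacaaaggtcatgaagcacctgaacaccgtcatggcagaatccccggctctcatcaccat
F7: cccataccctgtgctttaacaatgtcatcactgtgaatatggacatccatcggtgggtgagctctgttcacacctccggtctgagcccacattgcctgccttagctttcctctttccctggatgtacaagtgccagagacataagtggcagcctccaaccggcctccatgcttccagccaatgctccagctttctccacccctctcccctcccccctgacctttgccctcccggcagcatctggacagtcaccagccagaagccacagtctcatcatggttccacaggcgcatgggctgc

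In Fga the C/EBP match lay at -135 to -128 and the HNF1 motif at -43 to -38 from the gene start. In Fgb the IL-6 response element lay at -91 to -85, the C/EBP match at -80 to -73 and the HNF1 motif at -29 to -24. In F9 the IL-6 response element lay at -82 to -76 and the C/EBP match at -24 to -17. F7 held none of the 4 sets of letters in its window. The windows of F5, F10 and F12, which are not shown, held none either, so a lack of matches was not particular to F7. In the same annotation Fga lies between Fgg and Fgb on chromosome 3, F7 lies next to F10 and F10 next to Proz on chromosome 8, and F11 lies next to Klkb1 on chromosome 8, counting protein-coding genes.

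All 10 genes were lower off NTBC than in normal livers on 430A, in both genotypes. In whole liver RNA, fewer hepatocytes and less RNA per hepatocyte cannot be told apart. In Fah off livers 12 of the 13 probe sets fell at an adjusted p under 0.05 (limma, Benjamini-Hochberg over 15307 probe sets), covering all 10 genes by their main probe set, the one of highest mean log2 signal, and 0 rose. Of all probe sets tested in that comparison, 15.4% fell and 20.1% rose. In Fah p21 off livers 12 of the 13 fell, again all 10 genes by their main probe set, against 10.7% of all probe sets falling and 17.7% rising. The Fah off and normal signals did not overlap and Fah off was lower for 12 of 13 member probe sets, against 19.0% of all, and the Fah p21 off and normal signals were apart in the same way for 12 of 13, against 19.0%. The 10 main probe sets had a median log2 change of -1.84 in Fah off livers, against 0.02 over all probe sets tested, and of -1.53 in Fah p21 off livers, against 0.11 over all. Both comparisons share the 4 normal livers. Scaling the arrays to a common median moved the median over all probe sets from 0.11 to -0.13 in the Fah p21 off comparison, and the counts of member probe sets that fell stayed at 12 in both comparisons. It also turned the split over all probe sets in that comparison from 1637 falls and 2716 rises to 2507 falls and 1626 rises, and quantile normalization gave 2170 falls and 2327 rises.

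**Figure D1:**
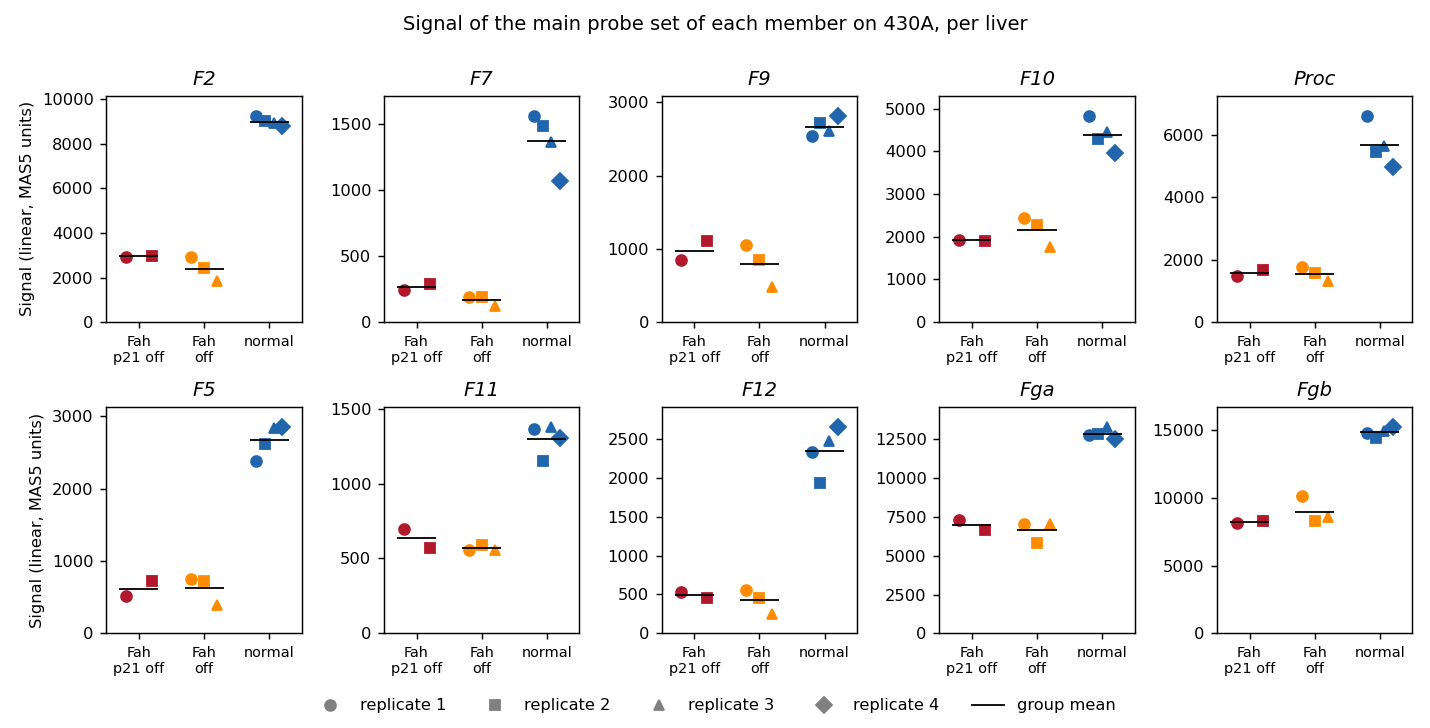
Signal of the main probe set of each of the 10 genes in each 430A liver, with groups Fah p21 off, Fah off and normal from left to right and the signal on a linear axis from 0 in each panel. Each point is 1 liver, its shape gives the replicate number and the line is the group mean, and for all 10 genes the 5 livers off NTBC lie below the 4 normal livers.

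The vitamin K-dependent procoagulant factors fell by different amounts. F7, which starts the extrinsic branch together with tissue factor, had the largest change of the 10 genes against the mean of the 4 normal livers. Its signals were 245.9 and 288.3 in Fah p21 off livers, 191.1, 193.4 and 124.4 in Fah off livers, and 1555.5, 1483.0, 1361.8 and 1067.4 in normal livers 1 to 4. The 3 groups did not overlap, and normal 4 was the lowest normal liver. On the log2(signal + offset) scale, F7 fell by 2.30 ± 0.21 (SE, limma adjusted p = 2.94e-05) in Fah p21 off livers, to 20.3% of normal, and fell by 2.95 ± 0.19 (adjusted p = 1.22e-06) in Fah off livers, to 12.9% of normal. With normal 4 as the only control, the log2 change in Fah p21 off livers was -1.96 for F7, against -2.41 for F12 and -2.21 for F5 1449269_at.

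F2 encodes prothrombin, the precursor of thrombin. Its signals were 2936.5 and 2969.8 in Fah p21 off livers, 2899.8, 2424.6 and 1849.5 in Fah off livers, and 9241.6, 9013.9, 8953.2 and 8794.3 in normal livers. The 4 normal livers lay close together, while Fah off livers spread widely and all lay below both Fah p21 off livers. F2 fell by 1.60 ± 0.16 (SE, limma adjusted p = 3.67e-05) in Fah p21 off livers, to 32.9% of normal with a 95% interval of 26.0% to 41.7%. It fell by 1.93 ± 0.14 (adjusted p = 2.23e-06) in Fah off livers, to 26.2% of normal with an interval of 21.3% to 32.3%.

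F9, the factor IX gene on the X chromosome, had signals of 842.9 and 1101.9 in Fah p21 off livers, 1046.8, 852.7 and 474.3 in Fah off livers, and 2542.3, 2721.2, 2607.6 and 2813.0 in normal livers. Both groups off NTBC overlapped each other and lay below every normal liver. The log2 change was -1.46 ± 0.26 (SE, limma adjusted p = 0.00159) in Fah p21 off livers and -1.81 ± 0.23 (adjusted p = 0.000112) in Fah off livers. With the Fah, p21 knockout liver on NTBC as the only control, the Fah p21 off change was -1.54 and no longer passed (adjusted p = 0.0564).

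F10 encodes factor X, where the branches meet. Its main probe set 1449305_at had signals of 1936.2 and 1894.2 in Fah p21 off livers, 2437.0, 2287.1 and 1761.3 in Fah off livers, and 4827.2, 4282.3, 4458.7 and 3973.1 in normal livers. It fell by 1.19 ± 0.15 (SE, limma adjusted p = 0.00019) in Fah p21 off livers and fell by 1.03 ± 0.13 (adjusted p = 0.000131) in Fah off livers. On 430A the other two F10 probe sets gave smaller changes. 1418992_at, at 117.0 and 103.9 in Fah p21 off livers, 110.3 to 143.0 in Fah off livers and 187.8 to 226.4 in normal livers, had log2 changes of -0.89 in Fah p21 off and -0.66 in Fah off livers that passed, but neither passed with the matching knockout liver on NTBC as the only control (adjusted p = 0.149 and 0.0920). 1418993_s_at, the only member probe set that did not pass on 430A, had 279.3 and 268.7 in Fah p21 off livers, 203.6 to 253.9 in Fah off livers and 243.8 to 384.5 in normal livers. Its log2 changes were -0.16 ± 0.19 (adjusted p = 0.575) in Fah p21 off livers and -0.40 ± 0.17 (adjusted p = 0.0944) in Fah off livers. The Fah off change of this probe set passed after quantile normalization (adjusted p = 0.0416) and without normal 2 (adjusted p = 0.0440).

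Proc encodes the anticoagulant protein C and fell by amounts within the range of the procoagulant genes. Its signals were 1478.7 and 1681.9 in Fah p21 off livers, 1747.7, 1564.4 and 1326.4 in Fah off livers, and 6588.7, 5441.5, 5633.4 and 4953.6 in normal livers. Both groups off NTBC occupied the same range, far below the normal livers. The log2 change was -1.83 ± 0.15 (SE, limma adjusted p = 1.47e-05) in Fah p21 off livers, to 28.2% of normal, and -1.87 ± 0.14 (adjusted p = 2.59e-06) in Fah off livers, to 27.4% of normal.

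F5 encodes factor V, the cofactor of activated factor X. Its main probe set on 430A, 1449269_at, had signals of 510.4 and 724.4 in Fah p21 off livers, 755.7, 719.3 and 387.7 in Fah off livers, and 2382.1, 2614.2, 2837.0 and 2847.2 in normal livers. It fell by 2.11 ± 0.25 (SE, limma adjusted p = 0.000138) in Fah p21 off livers and fell by 2.14 ± 0.22 (adjusted p = 3.10e-05) in Fah off livers. The other F5 probe set, 1418907_at, gave log2 changes of -2.13 in Fah p21 off and -2.34 in Fah off livers. Both probe sets had their lowest signal of all 9 livers in Fah off 3.

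The genes of the intrinsic branch differed in the size of their falls. F12, which encodes the contact factor XII, had signals of 533.3 and 448.6 in Fah p21 off livers, 563.4, 459.1 and 245.1 in Fah off livers, and 2336.2, 1929.7, 2480.2 and 2648.8 in normal livers. F12 fell by 2.23 ± 0.27 (SE, limma adjusted p = 0.000168) in Fah p21 off livers, to 21.3% of normal, and fell by 2.52 ± 0.24 (adjusted p = 1.81e-05) in Fah off livers, to 17.5% of normal. F11, which encodes the factor XI activated by factor XII, had signals of 696.6 and 571.2 in Fah p21 off livers, 558.4, 592.4 and 555.9 in Fah off livers, and 1365.2, 1148.2, 1374.7 and 1306.9 in normal livers. The 3 Fah off livers were nearly equal for F11, unlike for F12. F11 fell by 1.03 ± 0.14 (adjusted p = 0.000403) in Fah p21 off livers and fell by 1.17 ± 0.13 (adjusted p = 4.23e-05) in Fah off livers.

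Fga and Fgb encode the alpha and beta chains of fibrinogen, the precursor of fibrin, and had the smallest changes among the main probe sets. Both were near the top of the signal range, at percentiles 99.8 to 99.93 of the normal arrays on 430A. Whether signals this high limit the size of a change was not tested. Fga signals were 7288.8 and 6661.1 in Fah p21 off livers, 7056.7, 5802.9 and 7048.5 in Fah off livers, and 12805.5, 12875.0, 13275.4 and 12549.6 in normal livers. Fga fell by 0.88 ± 0.11 (SE, limma adjusted p = 0.000182) in Fah p21 off livers, to 54.2% of normal, and fell by 0.96 ± 0.10 (adjusted p = 2.60e-05) in Fah off livers, to 51.4% of normal. Fgb signals were 8131.8 and 8288.4 in Fah p21 off livers, 10103.0, 8276.3 and 8583.2 in Fah off livers, and 14801.7, 14410.9, 14927.3 and 15202.8 in normal livers. Fgb fell by 0.85 ± 0.10 (adjusted p = 0.000153) in Fah p21 off livers, to 55.4% of normal, and fell by 0.73 ± 0.09 (adjusted p = 0.000114) in Fah off livers, to 60.4% of normal. Groups did not overlap between normal and either group off NTBC for both genes. The size of these falls depended on scaling: after quantile normalization the log2 changes were -0.32 in Fah p21 off and -0.58 in Fah off livers for Fga, and -0.28 in Fah p21 off and -0.34 in Fah off livers for Fgb, and all 4 still passed.

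The gamma chain gene Fgg is not a member, but it completes the fibrinogen molecule. Its signals were 5031.8 and 6604.5 in Fah p21 off livers, 4805.1, 4412.9 and 3665.6 in Fah off livers, and 13670.1, 12672.5, 13712.5 and 13587.4 in normal livers, with normal 2 apart from the other normal livers. Fgg fell by 1.22 ± 0.14 (SE, limma adjusted p = 0.000107) in Fah p21 off livers and fell by 1.65 ± 0.12 (adjusted p = 3.14e-06) in Fah off livers. The log2 ratio of Fgg to Fgb within an array was -0.69 and -0.33 in Fah p21 off livers, -1.07, -0.91 and -1.23 in Fah off livers, and -0.11, -0.19, -0.12 and -0.16 in normal livers. It was thus below every normal liver in all 5 livers off NTBC on 430A, and lower in the Fah off than in the Fah p21 off livers. For Fgg over Fga, Fah p21 off 2, at -0.01, lay inside the normal range of -0.02 to 0.11. On 430 2.0 the difference between Fah p21 off and normal was smaller, -0.15 for Fgg over Fgb and -0.09 for Fgg over Fga, and Fgg itself did not pass there (-0.63, limma adjusted p = 0.129). These ratios were compared after the values were seen, so no test is given.

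**Figure D2:**
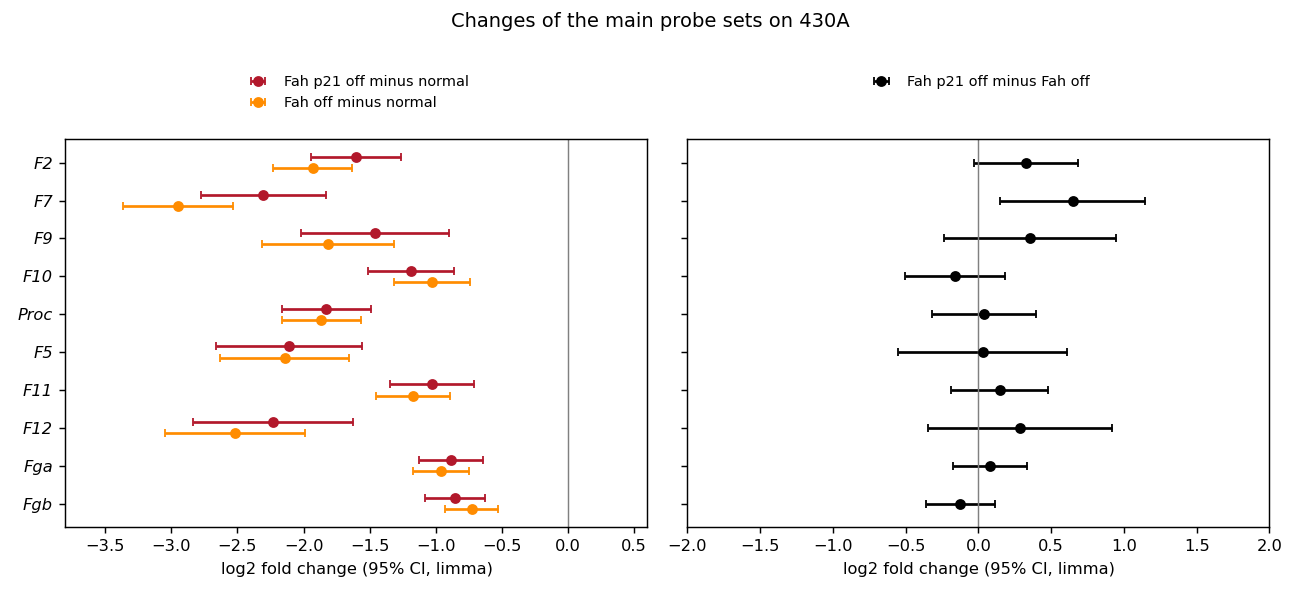
Log2 change of the main probe set of each of the 10 genes on 430A, as points with 95% intervals from limma, with Fah p21 off minus normal and Fah off minus normal on the left and Fah p21 off minus Fah off on the right. All 20 intervals on the left lie below 0, and on the right only the interval of F7 leaves out 0, before any adjustment for multiple tests.

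Loss of p21 on top of Fah off NTBC was examined by setting Fah p21 off against Fah off livers. In this comparison 0 of the 13 member probe sets passed in either direction (limma), and 1 of 13, F7, had an unadjusted p under 0.05. Over all 15307 probe sets, 0.0131% fell and 0.0261% rose. The signals did not overlap and Fah p21 off was higher for 3 of 13 member probe sets (F2, F7 and F10 1418993_s_at), against 17.1% of all probe sets, and lower for 0 of 13, against 10.9%. The F7 difference was 0.65 ± 0.23 (SE, limma adjusted p = 0.466), with a 95% interval of 0.15 to 1.14. The F2 difference was 0.33 ± 0.16 (adjusted p = 0.653), with an interval of -0.03 to 0.69. The intervals of Proc (-0.32 to 0.39) and of F5 1449269_at (-0.55 to 0.61) leave room for changes in either direction. The difference was above 0 for 8 of the 10 main probe sets, with a median of 0.11, against 0.06 over all probe sets tested. Of all probe sets tested, 56.7% lay at or below the median of the 10, so the members did not stand apart. The 10 differences come from the same livers and are not separate observations.

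Within the Fah off group, 1 liver stood lower than the others. Fah off 3 had the lowest signal of the 3 Fah off livers for 8 of the 10 main probe sets, all except Fga and Fgb, and for 11 of all 13, whereas it was lowest for 46.4% of all probe sets tested. Relative to the normal mean, the median of the 10 genes was -1.63 and -1.43 in Fah p21 off livers 1 and 2 and -1.49, -1.74 and -2.18 in Fah off livers 1 to 3, on the log2 scale. Without Fah off 3, the difference between Fah p21 off and Fah off was below 0 for Proc (-0.07), F12 (-0.06), F5 1449269_at (-0.27) and F5 1418907_at (-0.07), where it is above 0 with all livers. Among normal livers, normal 4 was the lowest for 5 of the 10 main probe sets, while it was lowest for 20.5% of all.

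**Figure D3:**
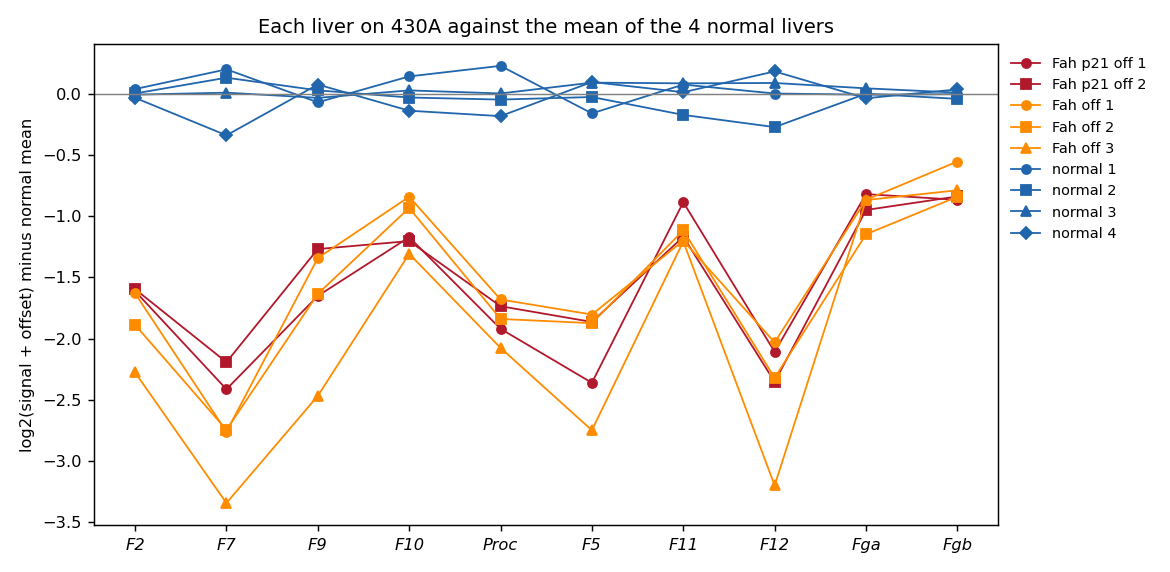
Log2 difference of each of the 10 genes from its normal mean in each 430A liver, as 1 line per liver coloured by group, the lines only joining values of 1 liver. Fah off 3 is the lowest Fah off liver for 8 of the 10 genes, all except Fga and Fgb.

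The 430 2.0 arrays gave a second reading of the double knockout, with 2 other Fah p21 off livers against the 1 normal 4 liver and 1 residual degree of freedom. Here 10 of the 13 member probe sets fell (limma, 26925 probe sets tested), covering 8 of the 10 genes by their main probe set, against 3.80% of all probe sets falling and 7.71% rising. The 10 main probe sets had a median log2 change of -1.32, against 0.07 over all. F7 had 486.1 and 295.7 in Fah p21 off livers and 2399.8 in the normal liver, a change of -2.65 ± 0.34 (SE, limma adjusted p = 0.00402). F12 had 1140.9 and 775.2 in Fah p21 off livers and 5612.1 in the normal liver, a change of -2.57 ± 0.29 (adjusted p = 0.00241). F9 had 2009.6 and 2175.1 in Fah p21 off livers and 8044.9 in the normal liver, a change of -1.94 ± 0.22 (adjusted p = 0.00263). F7 and F12 had the largest changes on this design. Its only control is normal 4, and with normal 4 as the only control on 430A the largest were those of F12 and F5.

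Fga and Fgb did not pass on 430 2.0. Fga had 15856.4 and 15733.9 in Fah p21 off livers and 23017.2 in the normal liver, a change of -0.54 ± 0.23 (SE, limma adjusted p = 0.183), and Fgb had 16978.6 and 17965.9 in Fah p21 off livers and 24407.5 in the normal liver, a change of -0.48 ± 0.23 (adjusted p = 0.238). The remaining member genes had log2 changes of -0.98 (F10) to -1.72 (F5 1418907_at, the main F5 probe set on this design), with F2 at 5306.5 and 6047.4 in Fah p21 off livers and 14339.9 in the normal liver. For F5 the livers had 2745.3 and 1694.1 in Fah p21 off livers 3 and 4 and 7093.6 in the normal liver. Proc had 3355.8 and 3291.2 in Fah p21 off livers and 8093.0 in the normal liver, a change of -1.28 ± 0.22 (adjusted p = 0.0124). F11 had 2328.3 and 1787.7 in Fah p21 off livers and 5009.2 in the normal liver, and F10 1449305_at had 3069.4 and 3578.8 in Fah p21 off livers and 6551.6 in the normal liver. In each of these genes both Fah p21 off livers lay below the normal liver. The third member probe set that did not pass was F10 1418993_s_at, at 531.0 and 536.1 in Fah p21 off livers and 1043.8 in the normal liver (adjusted p = 0.0520). Its log2 change was -0.96. F10 1418992_at had 443.3 and 399.8 in Fah p21 off livers and 862.9 in the normal liver, a change of -1.03. All F10 probe sets thus changed by similar amounts on this design, unlike on 430A. The calls on this design rested on the settings: with no filter 3 of 13 fell (F7, F9 and F12), and with no intensity trend in the fit 1 of 13 fell (F12). Scaling to a common median ended the calls of F2, Proc and the main F10 probe set.

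**Figure D4:**
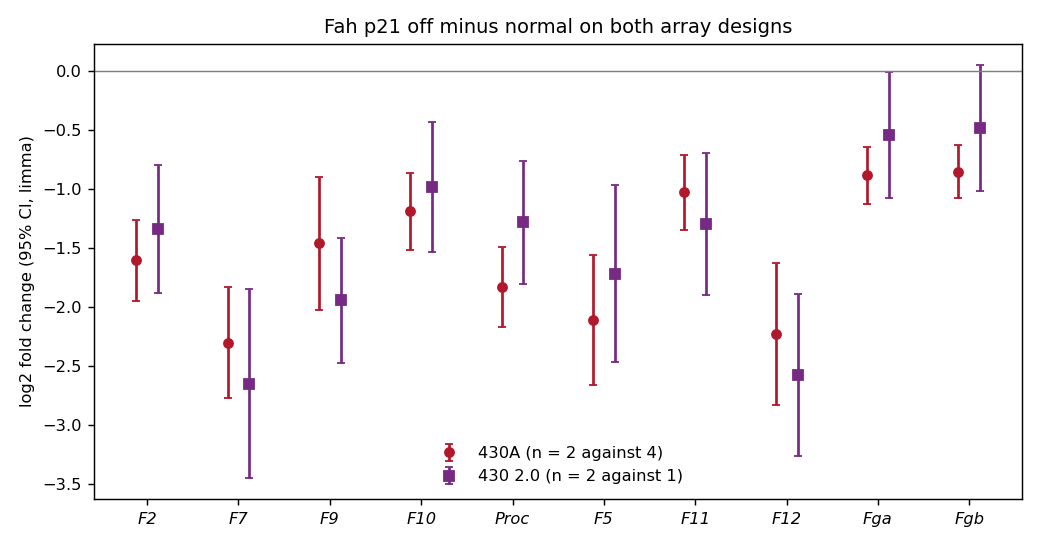
Log2 change of the main probe set of each gene in Fah p21 off against normal livers, on 430A and on 430 2.0, with 95% intervals from limma. Every estimate lies below 0 on both designs, and the 430 2.0 interval of Fgb crosses 0.

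Other clotting proteins made by hepatocytes moved in the same direction. The counts of this list and of the lists below stand beside the shares over all probe sets on 430A. These were 10.7% falling and 17.7% rising in Fah p21 off livers, and 15.4% falling and 20.1% rising in Fah off livers. On 430 2.0 the shares were 3.80% falling and 7.71% rising in Fah p21 off livers. Of 9 such genes tested on 430A, 8 fell in Fah p21 off livers with a median log2 change of -1.26, and 8 fell in Fah off livers with a median of -1.65. Klkb1, the plasma prekallikrein that acts with factor XII and the neighbour of F11, changed by -3.35 in Fah p21 off and -3.71 ± 0.27 in Fah off livers (SE, limma adjusted p = 2.56e-06). Proz, the vitamin K-dependent protein Z and the neighbour of F10, changed by -2.73 in Fah p21 off and -3.09 ± 0.19 in Fah off livers (adjusted p = 1.02e-06). Serpina10, the inhibitor that acts with protein Z, changed by -1.66 in Fah p21 off and -1.98 in Fah off livers. Serpind1, heparin cofactor II, changed by -1.26 in Fah p21 off and -1.73 in Fah off livers. The gene that did not pass was Pros1, the protein C cofactor protein S, at 0.39 in Fah p21 off and -0.17 in Fah off livers. On 430 2.0, 5 of the 9 fell and 0 rose in Fah p21 off livers, with a median of -1.01.

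Genes of clot breakdown and of the vessel wall did not move as one. Of 7 fibrinolysis genes tested, 3 fell and 4 rose in Fah p21 off livers, and 3 fell and 4 rose in Fah off livers. The liver-made Hrg changed by -1.62 in Fah p21 off and -1.74 in Fah off livers, and Plg, plasminogen, by -1.19 in Fah p21 off and -1.21 in Fah off livers. Plat, tissue plasminogen activator, rose by 2.15 in Fah p21 off and 2.50 ± 0.27 (SE) in Fah off livers. Plaur, the urokinase receptor, rose in both, by 1.42 in Fah off livers, and S100a10, which binds plasminogen at the cell surface, by 1.54 in Fah p21 off and 1.49 in Fah off livers. On 430 2.0, 3 of the 7 fell and 3 rose. Of 6 genes of the vascular and tissue side, 4 rose and 0 fell in Fah p21 off livers, and 3 rose and 0 fell in Fah off livers. Procr, the protein C receptor, rose by 2.56 in Fah p21 off and 3.08 ± 0.39 in Fah off livers, and Thbd, thrombomodulin, by 1.72 in Fah p21 off and 1.96 ± 0.25 in Fah off livers. Procr was dim and spread widely in normal livers, at 14.2 to 86.3, the highest being normal 4. On 430 2.0, where normal 4 had 215.4, Procr rose by 1.24. Gas6, a vitamin K-dependent ligand of receptor kinases, rose by 0.94 in Fah p21 off and 1.19 in Fah off livers. Proc, the gene of the protein that Procr and Thbd bring to activation, fell in the same livers. On 430 2.0, 3 of 9 genes of this list rose and 0 fell.

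The machinery that carboxylates and secretes clotting factors was partly lower. Of 6 genes tested, 3 fell and 1 rose in Fah p21 off livers, and 3 fell and 0 rose in Fah off livers. Ggcx, the gamma-carboxylase, changed by -0.96 in Fah p21 off and -1.32 ± 0.17 (SE) in Fah off livers, and Vkorc1, which recycles vitamin K, by -0.63 in Fah p21 off and -0.47 in Fah off livers. Lman1, a receptor that carries factors V and VIII out of the endoplasmic reticulum, changed by -0.78 in Fah p21 off and -0.93 in Fah off livers. Of 13 liver transcription factor genes tested, 8 fell and 2 rose in Fah p21 off livers, and 8 fell and 2 rose in Fah off livers. Cebpa, a C/EBP factor, changed by -1.16 ± 0.13 (SE) in Fah p21 off and -1.07 ± 0.11 in Fah off livers. Other C/EBP factors of the list did not move with it. In Fah off livers Cebpd rose by 1.04 ± 0.19 (limma adjusted p = 0.00138), and Cebpb, at -0.31 ± 0.19, did not pass (adjusted p = 0.242). Dbp, a clock-driven factor, changed by -1.90 ± 0.45 in Fah p21 off and -2.15 ± 0.39 in Fah off livers. Onecut1, which encodes HNF6, changed by -1.28 ± 0.41 in Fah p21 off and -1.62 ± 0.36 in Fah off livers. The normal livers spread widely for both, at 359.6 to 1491.1 for Dbp and 121.3 to 437.3 for Onecut1. Nfe2l2, which encodes the stress factor Nrf2, rose in both groups off NTBC, by 1.29 in Fah off livers. On 430 2.0, 0 of 7 carboxylation and secretion genes passed (limma, 2 at an unadjusted p under 0.05), and 5 of 13 transcription factor genes fell and 1 rose. Over all probe sets tested on that design, 3.80% fell and 7.71% rose. In the comparison of Fah p21 off with Fah off livers 0 genes of these lists passed (limma), and at an unadjusted p under 0.05 there were 2 of the 9 other clotting proteins and 0 genes of the other lists of related genes.

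**Figure D5:**
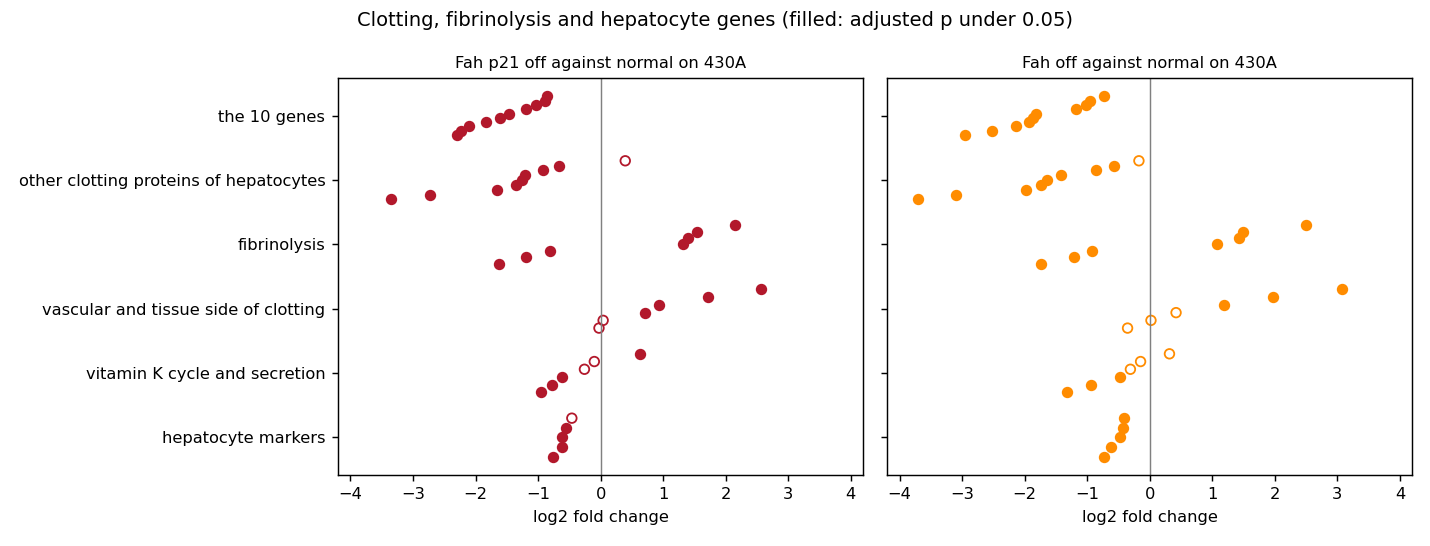
Log2 change of the main probe set of each gene in the member list and in the lists of related genes on 430A, for Fah p21 off against normal (left) and Fah off against normal (right). Each point is 1 gene, filled where it passed, the 10 genes lie below 0 throughout, and the fibrinolysis genes split to both sides of 0.

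Some markers of several liver cell types also differed between the groups. Over all probe sets tested on 430A, 10.7% fell and 17.7% rose in Fah p21 off livers. In Fah off livers 15.4% fell and 20.1% rose. On the 430 2.0 design 3.80% fell and 7.71% rose in Fah p21 off livers. At such shares, 0 passing among a few genes does not show a lack of change. With few genes per cell type, a count near these shares, as for stellate and endothelial markers in Fah off livers, does not set a cell type apart. Of 7 hepatocyte markers listed, 5 had a probe set annotated to that symbol alone. Their signals summed to 50586 to 53851 signal units in Fah p21 off livers, 53502 to 59059 in Fah off livers and 78529 to 82216 in normal livers. Of the 5, 4 fell in Fah p21 off livers with a median log2 change of -0.61, and 5 fell in Fah off livers with a median of -0.48, and on the 430 2.0 design 0 of the 5 passed (limma, 1 at an unadjusted p under 0.05). Ahsg, the secreted fetuin-A, changed by -0.77 in Fah p21 off and -0.74 in Fah off livers. Cholangiocyte markers summed to 816 to 1540 in Fah p21 off livers, 863 to 992 in Fah off livers and 155 to 303 in normal livers. The 4 tested (Prom1, Cldn4, Epcam and Sox9) rose in both groups off NTBC, Prom1 by 3.46 in Fah p21 off and 2.86 in Fah off livers. The keratin markers Krt19 and Krt7 did not pass the filter on low signals, and their Fah off and normal signals overlapped. Krt19 had 11.8 to 42.5 in Fah off and 15.5 to 30.4 in normal livers. Krt7 had 7.7 to 22.1 in Fah off and 7.9 to 36 in normal livers. Stellate markers summed to 8214 to 9002 in Fah p21 off livers, 5538 to 7923 in Fah off livers and 4019 to 4860 in normal livers, with 4 of 8 rising in Fah p21 off and 2 of 8 (Lum and Dcn) in Fah off livers. Macrophage markers summed to 10315 to 10524 in Fah p21 off livers, 7608 to 9734 in Fah off livers and 5025 to 9083 in normal livers, with 4 of 8 rising in Fah p21 off and 3 of 8 (Lyz2, Cd68 and Vsig4) in Fah off livers. Cd68 was higher in normal 4 than in the other normal livers. Megakaryocyte and platelet markers summed to 820 to 963 in Fah p21 off livers, 726 to 827 in Fah off livers and 792 to 1113 in normal livers, and of the 4 tested, 0 passed in Fah p21 off livers (limma, 1 at an unadjusted p under 0.05) and 1, Pf4, fell in Fah off livers. Endothelial markers summed to 2374 to 2670 in Fah p21 off livers, 2141 to 2886 in Fah off livers and 2192 to 2746 in normal livers, and the groups overlapped. Lymphocyte markers summed to 419 to 456 in Fah p21 off livers, 293 to 405 in Fah off livers and 251 to 497 in normal livers, so both groups off NTBC overlapped with normal but not with each other. Of these genes Lyve1 rose in both groups off NTBC, with 1 of 7 endothelial and 0 of 3 lymphocyte markers passing in each (limma, 0 lymphocyte markers at an unadjusted p under 0.05). Erythroid markers summed to 167 to 282 in Fah p21 off livers, 75 to 258 in Fah off livers and 1216 to 2285 in normal livers. In normal livers Alas2 made up most of the sum, at 1150.5 to 2207.7. Alas2, the only one tested, changed by -3.58 in Fah p21 off and -4.05 in Fah off livers. Hba-a1, Slc4a1 and Epb42 did not pass the filter on low signals, and their Fah off and normal signals overlapped. Hba-a1 had 34.2 to 54.5 in Fah off and 21.1 to 56.4 in normal livers. The difference in the sum is thus that of 1 gene. Of all marker genes on 430A, 1 lymphocyte marker stayed under the offset in every Fah off liver, and no other stayed under it throughout a group. The part of these shifts in the changes of the coagulation genes was not tested.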

How the data were processed

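Liver RNA was measured on 9 Affymetrix 430A and 3 Affymetrix 430 2.0 arrays. For each array the authors deposited 1 linear intensity per probe set. The submitters' processing notes name GCOS 1.4.0.036 and MAS5. Trimmed means lay between 347.5 and 348.8 on every array of 430A and between 347.7 and 348.1 on 430 2.0, so arrays were scaled to a common level before deposit. At most 0.426% of signals were identical between any pair of arrays, and no array was counted as a repeat of another.

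Signals were taken to log2(signal + offset), where the offset (9.9 on 430A and 3.8 on 430 2.0) was the 10th percentile of the deposited intensity over a whole table. This understates fold changes of dim probe sets. Probe sets at or above the 40th percentile of their array on at least 2 arrays were tested with limma 3.58.1 in R 4.3.3 (lmFit, eBayes with intensity trend), with all arrays of a design in 1 fit (6 residual and 5.01 prior degrees of freedom on 430A, 1 and 6.04 on 430 2.0) and Benjamini-Hochberg adjustment over all probe sets tested. The threshold was an adjusted p of 0.05. The designs were scaled separately and were fitted apart. The percent of normal is 2 to the power of the log2 change, and intervals are 95% intervals of that fit.

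Groups follow the titles, and replicates are the arrays titled as biological replicates. Gene symbols come from GEO's platform annotation: 20380 probe sets of 430A had 1 symbol, 691 several and 1555 none, and on 430 2.0 these were 34945, 932 and 9160. After 64 control probe sets were left out, no probe set named a member beside another symbol. Every probe set of a member is named. From each other list, named were up to 4 genes that passed in Fah off against normal with the largest change, up to 2 that passed in Fah p21 off against Fah off, and Fgg. Plg, Pros1, Cebpb, Cebpd, Krt19, Krt7, Hba-a1, Slc4a1 and Epb42 were named after their values were seen. Members, lists, motifs and tests were chosen with earlier results of these data known. The fit was also run on simulated data with independent noise for each probe set. A pass limit of that run was lowered after its result was seen, so the run is not used as support here. Python 3.11.15 and matplotlib 3.10.9 drew the figures.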

Additional observations from a re-analysis of the deposited data

Results flagged for a closer look

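Among 48 probe sets of members and related genes checked for a normal liver that stands apart from the other three, 2 were found, and chance places about 1 in 20 groups there. Fgg had 12672.5 signal units in normal 2, the wildtype liver on NTBC, against 13587.4 to 13712.5 in the other normal livers. Cd68, a macrophage marker, had 262.4 in normal 4, the Fah, p21 knockout liver on NTBC, against 186.5 to 190.9 in the other normal livers.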

How the results depend on the processing

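On 430A the number of member probe sets that fell was 12 to 13 in Fah off and 12 in Fah p21 off livers under all alternatives (other filters, offsets, scalings, fits and each liver left out in turn) except with the matching knockout liver on NTBC as the only control, where 11 fell in Fah off and 10 in Fah p21 off livers. It was 0 in Fah p21 off against Fah off under all of them. On 430 2.0, 10 fell in the setting reported, 3 with no filter, 1 with no intensity trend and 8 to 11 under the remaining alternatives. Replicate numbers did not pair livers: deviations of same-numbered livers correlated at -0.281 to 0.0713 over 7 pairs, and with a replicate block 12, 12 and 0 fell in the 3 comparisons of 430A. Leaving out the wildtype liver on water is the same fit as leaving out normal 1.

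For Fah p21 off against Fah off, small differences that did not pass changed sign, and the cause was not tested. Fgb was 0.055 after quantile normalization. Scaling to a common median gave -0.13 for Proc, -0.10 for Fga, -0.14 for F5 1449269_at and -0.021 for F11. The replicate block gave -0.030 for Proc and -0.091 for F5 1449269_at. Leaving out 1 liver at a time gave -0.017 to 0.14 for Fga, -0.068 to 0.13 for Proc, -0.055 to 0.53 for F12, -0.066 to 0.42 for F5 1418907_at and -0.27 to 0.28 for F5 1449269_at.

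Over all probe sets, 2355 fell and 3082 rose in Fah off livers, against 1015 and 1581 with the Fah knockout liver on NTBC as the only control. In Fah p21 off livers 1637 fell and 2716 rose, against 675 and 1187 with the Fah, p21 knockout liver on NTBC as the only control. Without Fah p21 off 1 these were 982 and 1551, and without Fah p21 off 2 they were 1111 and 1484. Between Fah p21 off and Fah off livers 2 fell and 4 rose, against 8 and 72 without Fah p21 off 1, and 1 to 4 falls with 0 to 11 rises under the remaining alternatives. On 430 2.0, 1024 fell and 2077 rose, against 287 and 715 with no filter and 202 and 1023 with no intensity trend. The number of arrays limits the precision, above all in Fah p21 off livers and on 430 2.0.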
